A study of Mus musculus with 32 samples.

Results

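The Usher genes described here are 9 mouse genes whose human counterparts cause, or have been linked to, Usher syndrome, the inherited combination of deafness and retinal degeneration. They were chosen by gene symbol, without a cutoff on any measured value, but with earlier results of these data known. They are Ush1c, Ush1g, Cdh23, Pcdh15, Myo7a, Clrn1, Whrn, Adgrv1 and Cib2, that is 9 of the 37310 genes in the count table. RNA sequencing was done on 14 brain tumor biopsies from transgenic mice, 6 from the GMYC model and 8 from the GTML model. In both models the tetracycline transactivator tTA was expressed from the Glt1 promoter, so that a transgene behind a tetracycline-responsive element (TRE) was active in hindbrain cells that express this glutamate transporter, as long as no doxycycline was given. GMYC mice (Glt1-tTA/TRE-MYC) carried human MYC behind the TRE, and GTML mice carried MYCN there. The paper gives FVB/N as the strain of all its transgenic crosses. It sequenced the GMYC tumors and credits GTML sequences, at least in part, to an earlier study. Which biopsies these were is not in the labels, so a difference between sources cannot be told apart from one between models. No treatment and no age was given for the biopsies, and the labels do not say whether each came from a separate animal, so every p-value measures the spread between biopsies. The comparison of the models asks whether each Usher gene differed between MYC-driven and MYCN-driven tumors.

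Usher proteins hold together the stereocilia, the bundle of stiff protrusions with which a hair cell of the inner ear senses sound. The cadherins encoded by Cdh23 and Pcdh15 join end to end into the tip link that pulls on the transduction channel. Harmonin (Ush1c), SANS (Ush1g) and the motor myosin VIIa (Myo7a) anchor this link to the actin core, whereas whirlin (Whrn) and the very large adhesion receptor Adgrv1 belong to the ankle links at the base of the stereocilia. In photoreceptors several of the same proteins sit around the calyceal processes and the periciliary membrane, next to the connecting cilium. Clarin 1 (Clrn1) is a small membrane protein with several membrane-spanning segments, and Cib2 is a calcium-binding protein that associates with the transduction channel.

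The libraries held 4602294 to 7279811 counts assigned to genes. The drivers separated the models: Myc was at 128 ± 47.5 CPM (counts per 1000000 library counts, the library size scaled by the trimmed mean of M-values; SD, n = 6) in GMYC and 5.19 ± 1.89 (n = 8) in GTML tumors, and Mycn at 23.0 ± 10.7 and 159 ± 28.0 CPM. Otx2 and Crx, transcription factors of photoreceptors and of Group 3 medulloblastoma, were present in both models, Otx2 at 315 ± 34.98 and 323 ± 48.6 CPM. A pair of GTML tumors stood apart in a list of 20 photoreceptor markers: their mean log2 CPM was 6.94 in GTML tumor 3 and 2.33 in GTML tumor 2, against 3.803 to 4.73 in the other GTML and 2.41 to 3.30 in the GMYC tumors. The share of counts in small nucleolar RNA genes split the libraries, above 0.3% in GMYC tumors 1 to 4 and GTML tumors 1 and 2 and below it in the other 8. GTML tumors 2, 3, 5 and 8 had 4 to 16 counts in 4 Y-linked genes, whereas every other library, all 6 GMYC among them, had 1102 or more. In bulk tissue, fewer cells of a type and less RNA per cell cannot be told apart. Of 10 hair cell markers, the transcription factors Pou4f3 and Gfi1 did not exceed 0.364 and 1.14 CPM in any tumor, whereas Lhx3 was at 28.5 to 178 CPM and Espn, Strc, Lhfpl5 and Otof reached 8.74, 5.22, 5.16 and 3.63 CPM. Their summed level was 112.5 to 163 CPM in GMYC and 36.1 to 190 CPM in GTML tumors.

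RefSeq promoters were found for 8 of the 9 genes, those with an entry in the sequence table used, with 2 for Myo7a. The last 100 bases before the annotated start (GRCm38.p6, gene strand, 5′ to 3′) are shown for the 4 genes that were higher in GTML tumors in the comparison described further on, with each CG dinucleotide in capitals.
Whrn (chr4:63495992-63496091, minus strand): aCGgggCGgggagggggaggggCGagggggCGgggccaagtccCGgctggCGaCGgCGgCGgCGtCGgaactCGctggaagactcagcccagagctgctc
Cib2 (chr9:54560191-54560290, minus strand): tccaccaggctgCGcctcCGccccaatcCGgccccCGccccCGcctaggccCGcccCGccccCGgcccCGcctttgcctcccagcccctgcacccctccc
Cdh23 (chr10:60696491-60696590, minus strand): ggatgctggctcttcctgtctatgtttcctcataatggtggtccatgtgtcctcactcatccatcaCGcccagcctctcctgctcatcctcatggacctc
Clrn1 (chr3:58885213-58885312, minus strand): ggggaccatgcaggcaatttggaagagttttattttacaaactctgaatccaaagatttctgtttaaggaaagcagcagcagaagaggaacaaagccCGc
The windows differ in base composition although the genes were called in the same direction. The Whrn window holds 12 CG and 77.0% G or C, and 12.1% of all RefSeq promoter windows of this length hold as many CG. That of Cib2 holds 9 CG and 82.0% G or C, whereas those of Cdh23 and Clrn1 hold 1 CG each, below the median of 3 over all promoters. The core motif of CRX and OTX2, TAATCC, was searched on both strands over 300 bases (250 before and 50 after the start) and matched 1 of the 9 promoters, that of Adgrv1, where it lay after the start. It matched 7.06% of 32851 promoters. The E-box CACGTG matched none of the 9 and 7.15% of all promoters.

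To compare genes with one another, CPM were divided by the length of the merged exons in kilobases. On this scale the Usher genes fell into 5 genes with a median over the 14 tumors above 1 CPM per kilobase and 4 genes with a median below 0.3. Whrn had the highest median level, 10.5 CPM per kilobase (range 4.38 to 23.8). It was followed by Pcdh15 at 7.81 (2.49 to 22.9), Cib2 at 5.76 (3.70 to 10.7), Myo7a at 2.44 (1.15 to 14.5) and Adgrv1 at 1.076 (0.168 to 12.2). Then came Ush1g at 0.215, Clrn1 at 0.205, Cdh23 at 0.142 and Ush1c at 0.0473 CPM per kilobase. Neighbours in this order overlapped in range without exception, so the order of single neighbours depended on the tumor. Whrn was above Pcdh15 in all 8 GTML but only 2 of 6 GMYC tumors, and Pcdh15 was above Cib2 in 9 of 14 tumors. The step from Adgrv1 to Ush1g was the clearest, with Adgrv1 higher in 13 of 14 tumors, while Ush1g exceeded Clrn1 in 7 and Clrn1 exceeded Cdh23 in 7 of 14.

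**Figure D1:**
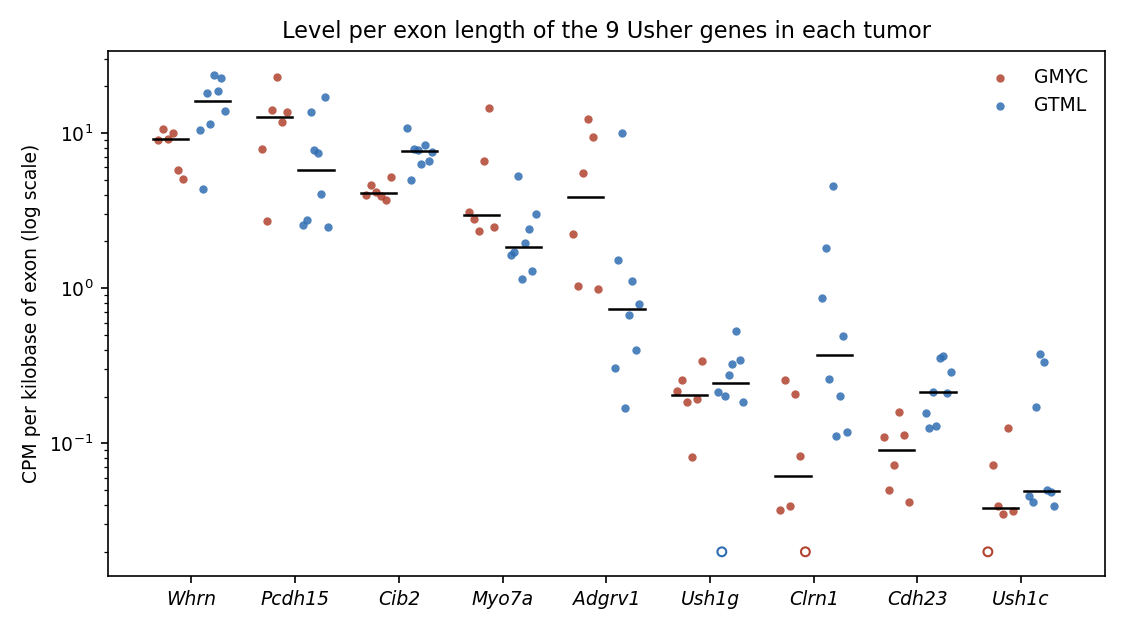
Level of each of the 9 Usher genes in CPM per kilobase of exon on a log scale, 1 point per tumor, with a black line at the median of each model (GMYC, n = 6; GTML, n = 8). Open circles drawn at the bottom are tumors with a count of 0; Whrn, Pcdh15, Cib2, Myo7a and Adgrv1 lie above Ush1g, Clrn1, Cdh23 and Ush1c in most tumors.

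Partners within a complex were therefore present at very unequal levels. Pcdh15, the lower cadherin of the tip link, was 8.64 to 328 times its partner Cdh23 per kilobase in the same tumor, with a median ratio of 61.9 over 14 tumors. The median ratio was 124 in GMYC and 21.5 in GTML tumors. Whrn exceeded Ush1c, a scaffold with the same kind of PDZ domains, by a median ratio of 145 in the 13 tumors with an Ush1c count. The ratio of Whrn to its ankle-link partner Adgrv1 ran from 0.615 to 68.1 over 14 tumors, with a median of 2.87 in GMYC and 25.96 in GTML tumors. Adgrv1 was above Whrn per kilobase in GMYC tumors 4 and 5.

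In the fit across all genes (edgeR quasi-likelihood test, Benjamini-Hochberg adjustment, called at an adjusted p under 0.05), 8 of the 9 Usher genes passed the filter on low counts and Ush1c did not. Cib2, Cdh23, Clrn1 and Whrn were called higher in GTML tumors, which is 4 of the 8 tested where 11.5% of all 21024 tested genes were called in this direction and 21.2% in either. Some markers of other cell types were also higher in GTML tumors. The mean log2 CPM of 6 choroid plexus markers was 0.475 to 0.966 in GMYC and 1.0 to 1.83 in GTML tumors. Their summed level was 15.1 to 30.9 and 21.9 to 142 CPM. Of 4 tested genes 1 was called higher in GTML, Slc4a5, at 8.70 to 25.2 and 14.3 to 129 CPM. Log2 fold changes were positive for 3 of the 4, and Clic6 was at -0.37 (edgeR adjusted p = 0.681). Ttr and Folr1 did not exceed 1.68 and 0.91 CPM in any tumor. Of 8 markers of multiciliated ependymal cells, 5 were tested and Foxj1 and Hydin were called higher in GTML, with a summed level of 4.64 to 14.7 and 6.66 to 56.6 CPM, while Ccdc153, Tmem212 and Spag17 stayed below 1 CPM. The summed level of the 20 photoreceptor markers was 810.5 to 1320 CPM in GMYC and 347 to 3667 CPM in GTML tumors. The part of these cell types in the Usher calls was not tested. Clrn1 passed the filter only through GTML tumors, since no GMYC tumor reached 1 CPM. None was called higher in GMYC tumors by edgeR, where 9.71% of all tested genes were. In that direction 1 Usher gene, Myo7a, had an unadjusted p under 0.05, DESeq2 called 1 and limma-voom called 0. Of all 21024 tested genes DESeq2 called 2547 toward GMYC and 3305 toward GTML. None of the 8 met the stricter rule of the study, an adjusted p under 0.01 together with more than 1 on the log2 scale, which 2.11% of all tested genes met toward GTML and 1.1% toward GMYC. Without GTML tumor 2 the members called were 4 toward GTML and 0 toward GMYC, beside 15.6% and 15.1% of all genes. Without GTML tumor 3 they were 3 and 2, beside 10.2% and 8.31%, and without both tumors 4 and 2, beside 14.2% and 13.4%. With limma-voom they were 2 and 0, beside 9.99% and 11.4%. The models overlapped for each of the 8 genes, where 4.62% of all tested genes showed no overlap.

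**Figure D2:**
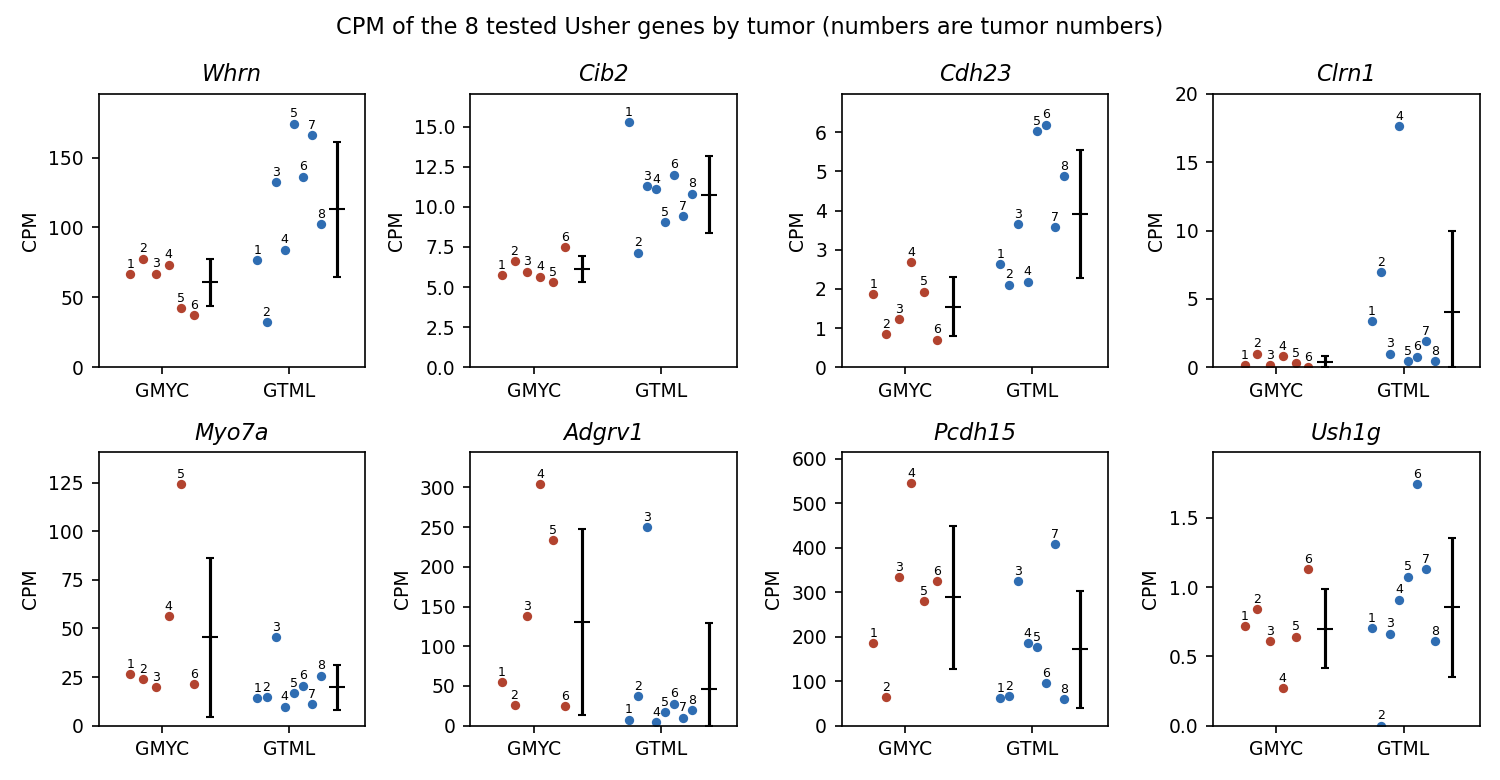
CPM of the 8 tested Usher genes in each tumor, with a linear axis from 0 per gene; the small digits are tumor numbers and the black bars give the mean and SD of each model (n = 6 and n = 8), cut off at 0. The top row holds the 4 genes called higher in GTML, and Adgrv1 and Myo7a in the bottom row show single high tumors such as GTML tumor 3 at 250 CPM of Adgrv1.

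Among the scaffolds, Whrn was at 37.1, 66.7 and 77.7 CPM (lowest, median, highest) in the 6 GMYC tumors and at 32.1, 117 and 174 CPM in the 8 GTML tumors. In GTML, 6 tumors lay above every GMYC tumor, tumor 1 lay within the GMYC range and tumor 2 was the lowest of all 14. The means were 60.6 ± 16.8 (SD, n = 6) and 113 ± 48.2 (n = 8), a log2 fold change of 0.90 (SE 0.303, edgeR adjusted p = 0.046). The call was lost in 10 of 14 fits that each left out a tumor: without GMYC tumor 1, 3, 4, 5 or 6 or without GTML tumor 3, 5, 6, 7 or 8, with adjusted p from 0.0526 to 0.0977. Without GTML tumor 2 the fold change was 1.04 (adjusted p = 0.00531). The difference did not keep its direction on both sides of the small nucleolar RNA split. It was -0.38 (edgeR adjusted p = 0.65) among the 6 libraries with the higher share. Among the 8 with the lower share it was 1.72 (edgeR adjusted p = 0.0125). The higher side held GMYC tumors 1 to 4, at 66.5 to 77.7 CPM, and only GTML tumors 1 and 2, at 76.6 and 32.1 CPM. Whether the reversal rests on GTML tumor 2 was not tested. Among the GMYC tumors, the 2 on the lower side were the 2 with the least Whrn, 42.4 and 37.1 CPM. Whether the sides differ was not tested.

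Harmonin (Ush1c) was close to the limit of detection, with 31 counts over all 14 tumors. GMYC tumors had 0 to 3 counts and GTML tumors had 1 to 8, up to 1.46 CPM in GTML tumor 4. A count of 0, seen in GMYC tumor 1, allows up to 0.43 CPM for counting error alone. In the fit with no filter on low counts its log2 fold change was 1.32 (SE 0.703, edgeR adjusted p = 0.214). Ush1g, the scaffold SANS, was also sparse: its lowest, median and highest values were 0.269, 0.680 and 1.13 CPM in GMYC and 0, 0.807 and 1.74 CPM in GTML tumors. The models overlapped almost fully, and the log2 fold change was 0.26 with a 95% interval from -0.83 to 1.35 (edgeR adjusted p = 0.736). It changed sign with limma-voom, to -0.01, and when the small nucleolar RNA split was added as a term, to -0.20.

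The cadherins of the tip link pointed in opposite directions. Cdh23 ranged from 0.706 to 2.69 CPM (median 1.54) in GMYC and from 2.11 to 6.20 CPM (median 3.62) in GTML tumors, from 5 to 20 and from 12 to 32 counts. In GTML, 5 tumors exceeded every GMYC tumor, and GTML tumors 1, 2 and 4 lay below GMYC tumor 4. The means of 1.54 ± 0.757 and 3.91 ± 1.63 CPM gave a log2 fold change of 1.33 (SE 0.378, edgeR adjusted p = 0.0236). Without GMYC tumor 3 the adjusted p was 0.0553, and with the small nucleolar RNA split as a term it was 0.0921. Within the sides of that split the fold change was 0.53 (adjusted p = 0.7) in the higher and 1.73 (adjusted p = 0.0698) in the lower share.

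Pcdh15 was the most variable of the abundant members in absolute terms. It was at 64.6, 302 and 544 CPM (lowest, median, highest) in GMYC and at 59.2, 136 and 408 CPM in GTML tumors. GMYC tumor 4 was the highest and GMYC tumor 2 among the lowest of the 14, so that each model spanned most of the range. The log2 fold change was -0.75 (SE 0.485, 95% interval -1.78 to 0.28, edgeR adjusted p = 0.266), which was not past the threshold in any alternative. It was -2.14 (adjusted p = 0.342) among the libraries with the higher and -0.55 (adjusted p = 0.497) among those with the lower small nucleolar RNA share.

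Myo7a, the motor of the complex, was at 19.9, 25.2 and 124 CPM (lowest, median, highest) in GMYC and at 9.83, 15.7 and 45.5 CPM in GTML tumors. GMYC tumors 5 and 4, at 124 and 56.4 CPM, were above every GTML tumor, and 5 GTML tumors were below every GMYC tumor. The means were 45.4 ± 41.0 and 19.8 ± 11.6 CPM, and the log2 fold change was -1.19 (SE 0.444, 95% interval -2.13 to -0.25) with an edgeR adjusted p of 0.0645. It moved to -0.58 (adjusted p = 0.274) without GMYC tumor 5 and to -1.49 (adjusted p = 0.0267) without GTML tumor 3. DESeq2, which made more false calls than edgeR on simulated counts, called it with an adjusted p of 0.0368. Within the sides of the small nucleolar RNA split the values were -1.12 (adjusted p = 0.379) and -1.76 (adjusted p = 0.0746).

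Adgrv1, the receptor of the ankle links, had the widest range in fold terms within each model among genes with no count of 0 there. It was 12.4-fold in GMYC and 59.8-fold in GTML tumors. Adgrv1 was at 24.6, 96.4 and 304 CPM (lowest, median, highest) in GMYC and at 4.19, 18.2 and 250 CPM in GTML tumors. In GTML, 7 tumors were at 37.5 CPM or less, 5 of these below every GMYC tumor, while GTML tumor 3 at 250 CPM was level with the highest GMYC tumors. The log2 fold change over all 14 tumors was -1.47 (SE 0.828, edgeR adjusted p = 0.202). Without GTML tumor 3, the tumor with the highest photoreceptor marker level, the GTML mean was 17.6 ± 11.8 CPM (n = 7) against 130 ± 117 in GMYC, and the fold change was -2.88 (adjusted p = 0.0105). With a covariate from Y-linked genes it was -3.45 (adjusted p = 0.0471). Within the sides of the small nucleolar RNA split it was -2.51 (adjusted p = 0.401) and -1.25 (adjusted p = 0.492).

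Clrn1 was sparse in GMYC and uneven in GTML tumors. In GMYC its lowest, median and highest values were 0, 0.237 and 0.983 CPM, or 0 to 7 counts. In GTML they were 0.43, 1.44 and 17.7 CPM, or 2 to 97 counts. GTML tumors 4, 2 and 1, at 17.7, 6.98 and 3.34 CPM, stood above the rest, and GTML tumors 5, 6 and 8 lay within the GMYC range. The log2 fold change of 3.26 had a wide error (SE 0.951, edgeR adjusted p = 0.0258). It was 2.34 (adjusted p = 0.0472) without GTML tumor 4. The call was lost without GMYC tumor 1, 3 or 5, at an adjusted p of 0.0537, 0.0594 and 0.0538, and with limma-voom at 0.0693. Clrn1 did not pass the low-count filter within either side of the small nucleolar RNA split.

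Cib2 had the smallest fold change of the 4 and the narrowest range in fold terms, 1.41-fold in GMYC and 2.14-fold in GTML tumors. It was at 5.30, 5.84 and 7.48 CPM (lowest, median, highest) in GMYC and at 7.14, 10.97 and 15.3 CPM in GTML tumors, from 33 to 53 and from 42 to 87 counts. In GTML, 7 tumors lay above every GMYC tumor, and tumor 2 at 7.14 CPM was just below GMYC tumor 6 at 7.48 CPM. The means of 6.12 ± 0.794 and 10.8 ± 2.41 CPM gave a log2 fold change of 0.81 (SE 0.208, edgeR adjusted p = 0.015). It was called in all 14 fits that left out a tumor, with log2 fold changes from 0.72 to 0.88. Within the sides of the small nucleolar RNA split it was 0.92 (adjusted p = 0.381) and 0.72 (adjusted p = 0.143), positive in both and called in neither. In the GRCm38 annotation 227 of the 1433 exon bases of Cib2 overlap exons of Sh2d7 on the opposite strand, and whether the counting used strand is not given in the sources used here. Sh2d7 itself had a log2 fold change of -0.52 (adjusted p = 0.405).

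**Figure D3:**
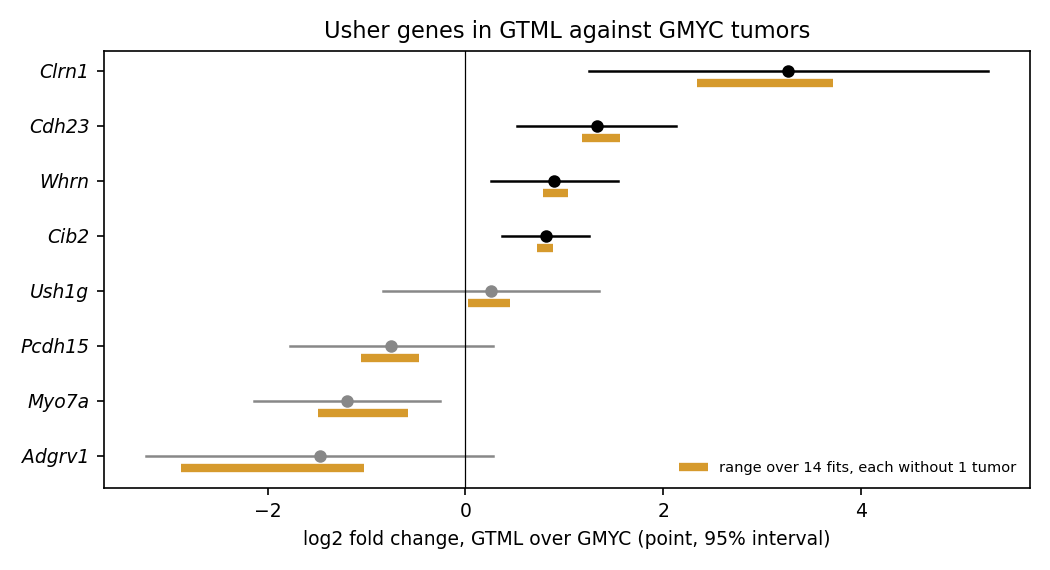
Log2 fold change of GTML over GMYC tumors for the 8 tested Usher genes (points) with 95% intervals (lines; black where the adjusted p was under 0.05) and the range over 14 fits that each left out 1 tumor (orange bars). Cib2 has the narrowest interval, 0.37 to 1.25, and Adgrv1 the widest orange bar, from -2.88 to -1.03.

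The members were also compared with one another across tumors, on log2 CPM centred within each model. Of 28 pairs, 1 passed the adjustment over all pairs. Myo7a and Adgrv1 rose and fell together over the 14 tumors (Pearson's r = 0.771, permutation p = 0.00142, adjusted p = 0.0398; Spearman's rho = 0.763, permutation p = 0.0034, adjusted p = 0.0952). The correlation was 0.646 without the 2 tumors farthest from the median, 0.881 within GTML and 0.705 within GMYC. GMYC tumors 4 and 5 and GTML tumor 3 held the 3 highest values of both genes. The mean log2 CPM of 7 astrocyte markers was 6.38, 5.47 and 5.26 in these 3 tumors, against 4.11 to 6.52 over all GMYC and 3.50 to 5.66 over all GTML tumors. GTML tumor 4, lowest for both genes, was also lowest in the astrocyte markers, and GMYC tumor 4 was second to GMYC tumor 1 in them. Other tumors went the other way. GMYC tumor 1, highest in these markers at 6.52, had 26.4 CPM of Myo7a and 55.2 CPM of Adgrv1. GMYC tumors 3 and 6, at 5.78 and 5.70, exceeded GMYC tumor 5 in them but had 19.9 and 21.3 CPM of Myo7a. The photoreceptor marker levels of the 3 tumors were 3.21, 2.89 and 6.94. The part of other cell types in the correlation was not tested.

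**Figure D4:**
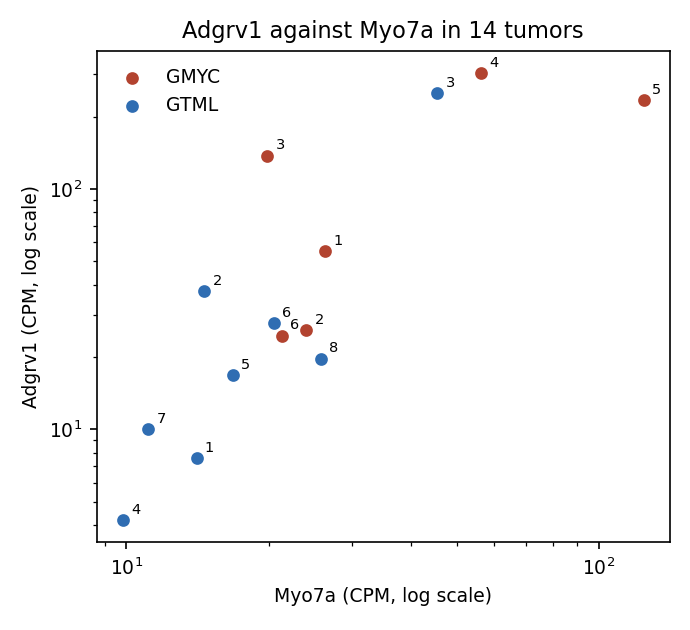
Adgrv1 against Myo7a in CPM, both axes on a log scale, 1 point per tumor with its number (red, GMYC, n = 6; blue, GTML, n = 8). GMYC tumors 4 and 5 and GTML tumor 3 form the upper right, and GTML tumor 4 is lowest for both genes.

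The tumors differed in photoreceptor genes, so each tested member was set against the photoreceptor marker level within GTML, within GMYC and over all tumors, 24 relations in all. Within a model none passed the adjustment over the 24. Over all 14 tumors, Whrn rose with the marker level by rank (Spearman's rho = 0.785, permutation p = 0.00133, adjusted p = 0.0319) and less clearly by value (Pearson's r = 0.653, permutation p = 0.0088, adjusted p = 0.106). For Cib2 r was 0.679 (permutation p = 0.00452, adjusted p = 0.106) and rho was 0.714 (permutation p = 0.00563, adjusted p = 0.0674). Without the 2 tumors farthest from the median marker level r was 0.66 for Whrn and 0.821 for Cib2. Both genes and the marker level also differ between the models: within GTML r was 0.519 for Whrn and 0.488 for Cib2, and within GMYC it was 0.42 and -0.0951. Without GTML tumor 2 the values within GTML were 0.0182 and 0.112, and without the 2 tumors farthest from its median marker level they were -0.363 and 0.247. The levels of Whrn and Cib2 and of the marker list move with the model, and the part of photoreceptor-like cells in either difference was not tested.

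For each tested member the 3 protein-coding genes with the most similar pattern were taken by Pearson's r of log2 CPM centred within models, over 14 tumors and 12463 genes with a mean of at least 5 CPM. The closest was Inpp5e to Whrn, a phosphoinositide phosphatase of the primary cilium, with r = 0.951, followed by Dtna at 0.936 and Sec16a at 0.934. Adgrv1 was closest to Klhl4 (0.933), Pcdh15 to Gm28042 (0.921), Cib2 to Dnajc10 (0.91), Ush1g to Lcorl (0.88), Cdh23 to Csdc2 (0.868), Myo7a to Tef (0.867) and Clrn1 to Slc20a2 (0.84). These values are the top of a search over many genes and describe these 14 tumors only.

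The other stereocilium genes, 28 in number, were read from the same fit, of which 23 passed the filter. Of these, 4 were called higher in GTML and 0 higher in GMYC tumors by edgeR, with 1 at an unadjusted p under 0.05 in that direction, 1 called by DESeq2 and 0 by limma-voom. Of all tested genes edgeR called 11.5% toward GTML and 9.71% toward GMYC. Toward GMYC, DESeq2 called 2547 of the 21024 tested genes and limma-voom 11.4%. The median log2 fold change of the 23 was 0.54, against 0.04 over all tested genes. Myo15, the motor that carries whirlin to stereocilia tips, rose from 1.34 ± 0.806 to 10.4 ± 5.23 CPM (log2 fold change 2.94, SE 0.484, adjusted p = 0.00279). Tmc2, a subunit of the transduction channel, rose from 0.476 ± 0.269 to 2.27 ± 1.21 CPM (2.19, SE 0.476, adjusted p = 0.00825). No GMYC tumor exceeded 0.942 CPM of Tmc2, so it passed the filter only through GTML tumors. Fscn2, an actin-bundling fascin of photoreceptors and hair cells, rose from 2.04 ± 0.443 to 6.02 ± 2.64 CPM (1.55, SE 0.352, adjusted p = 0.00971). Pdzd7, the scaffold that joins whirlin at the ankle links, rose from 4.18 ± 1.14 to 7.61 ± 2.11 CPM (0.86, SE 0.27, adjusted p = 0.0346). GTML tumor 2 was the lowest GTML tumor for Myo15, Fscn2 and Pdzd7, at 1.79, 1.62 and 3.25 CPM, and without it 7 of the 23 were called higher in GTML, where the share over all genes was 15.6%. Without GTML tumor 3, 3 were called toward GTML and 2 toward GMYC, where the shares over all genes were 10.2% and 8.31%.

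Paralogs of the Usher genes and of their intestinal counterpart, the intermicrovillar adhesion complex, were often close to the limit of detection. Of 11 genes, 6 passed the filter and 5 did not reach 1 CPM in any tumor. Cdhr5, a brush-border protocadherin, was higher in GTML tumors (0.0933 ± 0.115 against 0.881 ± 0.715 CPM, log2 fold change 2.94, SE 0.772, adjusted p = 0.0167). It passed the filter only through GTML tumors, since its highest GMYC value was 0.282 CPM. Myo7b, the brush-border relative of Myo7a, was higher as well (0.215 ± 0.198 against 1.198 ± 0.706 CPM, log2 fold change 2.35, SE 0.719, adjusted p = 0.0313), although it was at 0 in GTML tumor 2. It too passed the filter only through GTML tumors, with a highest GMYC value of 0.43 CPM. Calls toward GTML covered 11.5% of all tested genes. None of the 6 was called higher in GMYC by edgeR, DESeq2 or limma-voom, with 0 at an unadjusted p under 0.05. In that direction edgeR called 9.71%, limma-voom 11.4% and DESeq2 2547 of all 21024 tested genes.

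Of 5 genes linked to atypical Usher syndrome, all passed the filter and 3 were called, where 21.2% of all tested genes were. Cep250, a centrosomal linker protein, rose from 78.6 ± 38.4 in GMYC to 155 ± 44.4 CPM in GTML tumors (log2 fold change 0.98, SE 0.282, adjusted p = 0.0246). Cep78, a centriolar protein, fell from 116.5 ± 13.9 to 91.5 ± 10.3 CPM (-0.35, SE 0.103, adjusted p = 0.027). Hars, the cytosolic histidyl-tRNA synthetase, fell from 136 ± 13.4 to 101 ± 16.4 CPM (-0.43, SE 0.11, adjusted p = 0.0147).

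Of the 10 hair cell genes, 5 passed the filter and 0 were called higher in GTML by edgeR, DESeq2 or limma-voom, with 0 at an unadjusted p under 0.05 in edgeR. Lhx3 was lower in GTML tumors (126 ± 19.9 against 57.1 ± 49.6 CPM, log2 fold change -1.14, adjusted p = 0.0328), although GTML tumor 4 was the highest of all 14 at 178 CPM. Of the 20 photoreceptor markers, all of which were tested, 10 were called higher in GTML and 0 higher in GMYC by edgeR, DESeq2 called 11 and 0, and limma-voom 3 and 0. Over all tested genes the shares were 11.5% and 9.71% in edgeR and 9.99% and 11.4% in limma-voom. DESeq2 called 3305 and 2547 of the 21024 tested genes.

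**Figure D5:**
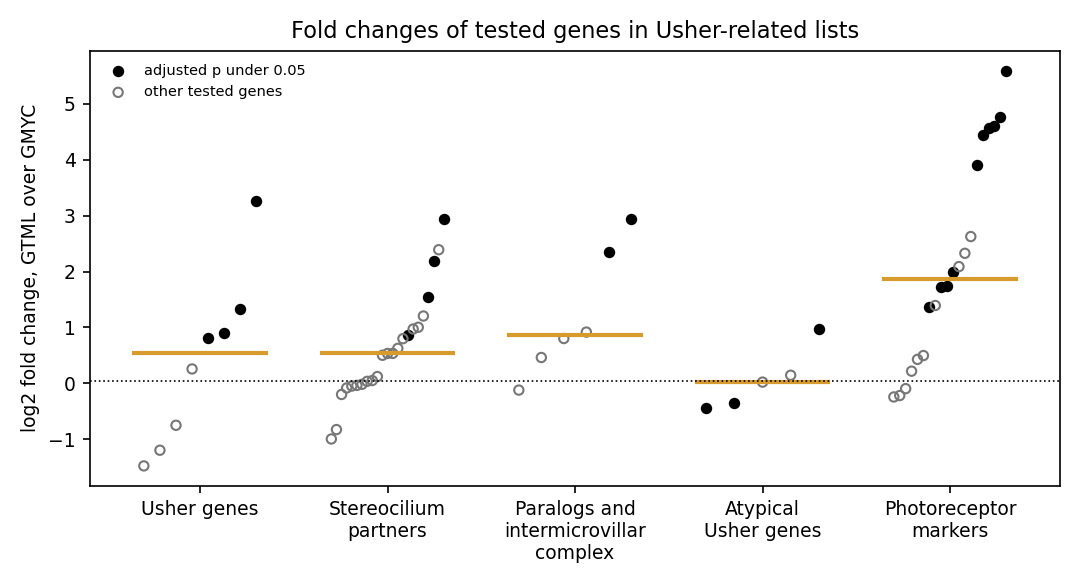
Log2 fold change of GTML over GMYC tumors for every tested gene of the Usher genes (8), stereocilium partners (23), paralogs and intermicrovillar complex (6), atypical Usher genes (5) and photoreceptor markers (20), with filled points at an adjusted p under 0.05. Orange lines are list medians and the dotted line is the median of all tested genes, 0.04; the photoreceptor median is 1.87.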

How the data were processed

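RNA from fresh-frozen tumor biopsies was sequenced on an Ion Torrent platform. The deposited values are raw read counts per Ensembl gene, which the authors made by aligning reads to mm9 with STAR and then Bowtie2 and counting with featureCounts; the submitters' processing notes name STAR 2.4.0, Bowtie2 2.2 and Subread 1.5.2. Strand setting and treatment of duplicate reads are not given in the sources used here. Samples were grouped by their titles. A second deposited count table, with 18 columns that match no tumor sample, was not used. Symbols and exon lengths came from the GENCODE vM21 annotation of GRCm38, which matched 32620 of 37310 identifiers (87.4%). It is another build than that of the counts, so no gene coordinates are given. Promoters are RefSeq sequences of GRCm38.p6.

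Genes with more than 1 CPM in at least 3 tumors were tested with edgeR 4.0.16 (quasi-likelihood, TMM factors, no covariates, R 4.3.3), two-sided, with Benjamini-Hochberg adjustment over 21024 genes. The study used limma-voom on part of the GTML tumors. Which tumor it left out is not in the labels, so all 8 were kept. Fold changes in CPM carry the fit's small prior count. Alternatives were DESeq2 1.42.0, limma-voom (limma 3.58.1), other size factors and filters, leaving out each tumor, a term for or a split by the small nucleolar RNA share, a Y-linked covariate and a replicate block. Intervals of fold changes carry the spread between tumors, and the limit given for a count of 0 covers counting error only. In all 43 within-model pairs the libraries differed by more than sampling noise (chi-square per degree of freedom at least 5.67), so none was taken as a duplicate. Counts were simulated with 20579 genes for 6 against 8 tumors. On these, edgeR recovered 33.3% of genes changed by 1 and 75.5% of those changed by 2 on the log2 scale, with 4 false calls. DESeq2 recovered 58.6% and 86.8% with 34 false calls, and limma-voom 33.3% and 70.8% with 3. Correlations used 100000 permutations over 14 tumors and exact permutations within models, with Benjamini-Hochberg adjustment.

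All 9 Usher genes are named. From other lists the called genes with the smallest p are named, at most 4 per list and direction, with Pdzd7 and Myo7b always. Likeness was the top 3 by r. The members and lists were chosen with earlier results of these data known.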

Additional observations from a re-analysis of the deposited data

Results flagged for a closer look

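In 40 groups of 6 or 8 tumors (the Usher genes and marker lists, each by model), a single tumor lay far from the others of its model in 6. The rule was the gap to the next tumor over the range, with a limit that about 2 groups would pass if values were normally distributed. Genes were read in CPM and lists in mean log2 CPM. Whether the genes would be flagged on a log scale was not tested, so the 6 cannot be read as an excess. Myo7a was at 124 CPM in GMYC tumor 5, with the next GMYC tumor at 56.4, and at 45.5 CPM in GTML tumor 3, with the next at 25.8. Adgrv1 was at 250.3 CPM in GTML tumor 3, with the next at 37.5. Clrn1 was at 17.7 CPM in GTML tumor 4, with the next at 6.98. Among marker lists, the choroid plexus level was lowest in GTML tumor 2, at a mean log2 CPM of 1.0, and the astrocyte level was lowest in GTML tumor 4, at 3.50. The causes were not tested.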

How the results depend on the processing

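Over all genes, the number called higher in GTML and in GMYC was 161 and 90 with the replicate block, 1433 to 3264 and 1184 to 3166 when single tumors were left out, 0 and 2 within the higher side of the small nucleolar RNA split (1355 and 1065 at an unadjusted p under 0.05 in edgeR), 1328 and 1334 within its lower side, 1136 and 555 with the Y-linked covariate, and 444 and 232 under the stricter threshold. With the term for the split 1428 were called higher in GTML. Without GTML tumor 2, 3166 were called higher in GMYC, and without GMYC tumor 3, 1184. The fits within a side of the split had fewer tumors, 6 and 8. The other causes were not tested.

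The replicate numbers did not pair the tumors: deviations of tumors with the same number correlated from -0.212 to 0.24 over the 6 numbers. With the replicate block 1 Usher gene was called higher in GTML, Clrn1, with Cdh23 at 1.27 (adjusted p = 0.141), Whrn at 0.69 (0.308) and Cib2 at 0.81 (0.121) on the log2 scale. Of 6 GMYC tumors, number 1 alone correlated best with its own number.

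The number of Usher genes called higher in GTML was 2 with limma-voom, with the term for the split and with the Y-linked covariate, 0 and 1 on the higher and lower sides, 0 under the stricter threshold, and 1 to 4 when single tumors were left out. The number called higher in GMYC was 1 with DESeq2 (Myo7a, -1.17), with the term for the split (Myo7a, -1.47, adjusted p = 0.0368) and with the Y-linked covariate (Adgrv1, -3.45), 2 without GTML tumors 2 and 3 together (Myo7a, -1.47, adjusted p = 0.0294; Adgrv1, -3.18, adjusted p = 0.00594), and 0 to 2 when single tumors were left out.

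Log2 fold changes when single tumors were left out ran from 1.18 to 1.56 for Cdh23, 2.34 to 3.72 for Clrn1, 0.78 to 1.04 for Whrn, -1.49 to -0.58 for Myo7a and -2.88 to -1.03 for Adgrv1. Calls were lost for Cdh23 with the term for the split (1.14), the Y-linked covariate (1.21, adjusted p = 0.0997) and within both sides (0.53 and 1.73), for Clrn1 with limma-voom (2.59), for Cib2 within both sides (0.92 and 0.72), and for Whrn with limma-voom (0.76, adjusted p = 0.108), no filter (0.88, adjusted p = 0.0545), the term for the split (0.72, adjusted p = 0.234) and the Y-linked covariate (0.93, adjusted p = 0.116). Whrn reversed to -0.38 on the higher side, where GTML tumors 1 and 2 were the only GTML tumors. Ush1g reversed to -0.00795 with limma-voom and -0.20 with the term for the split. Pcdh15 kept its direction and missed the threshold in each of its 12 alternatives and 14 single-tumor fits.

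Without GTML tumor 2 and without GTML tumor 3, an alternative added after seeing the data for the lists, the stereocilium genes called higher in GTML numbered 3 to 7 and those higher in GMYC 0 to 2; without both, 2 were higher in GMYC. The correlation with the photoreceptor marker level changed sign when GTML tumor 2 or 3 was left out, from -0.597 to 0.638 for Ush1g, -0.043 to 0.489 for Cdh23 and -0.438 to 0.861 for Adgrv1 within GTML, and from -0.281 to -0.0212 for Myo7a over all tumors. Depth limits Ush1c, Ush1g, Clrn1 and Cdh23, with counts of 0 to 97 per tumor.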
